A study of Homo sapiens with 8 samples.

Results

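The transcripts examined here encode enzymes and carriers of the tricarboxylic acid (TCA) cycle and of 2-oxoglutarate metabolism. The members were a fixed list of gene symbols, looked up by name in the expression table, and all 32 were found among its 25369 genes. RNA sequencing was done on EPC2-hTERT cells, wild-type human esophageal keratinocytes immortalized with telomerase, so every library comes from 1 cell line. The cells were grown at an air-liquid interface, where they stratify: 2 days to confluence on membranes with 0.4 µm pores, 5 days in medium with 1.8 mM CaCl2 and 4 days in contact with air. One group of 4 libraries received DMSO vehicle and the other group of 4 received 1 mM dimethyloxalylglycine (DMOG), an inhibitor of prolyl hydroxylases, for 18 h before harvest.

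The TCA cycle oxidizes the acetyl group of acetyl-CoA in the mitochondrial matrix and passes the electrons to the respiratory chain. One of its intermediates, 2-oxoglutarate, is also the co-substrate of the prolyl hydroxylases that target the alpha subunits of hypoxia-inducible factors (HIF) for breakdown, and succinate and fumarate, which are made further along the cycle, can inhibit these enzymes. DMOG enters cells and competes with 2-oxoglutarate, which it resembles. HIF-1 is known to lower entry of pyruvate into the cycle by inducing PDK1, a kinase that inactivates pyruvate dehydrogenase. The comparison asked how transcript levels differ between cultures with and without the inhibitor.

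Levels are RPKM, reads scaled to gene length and to the library's total, so they can be compared between genes. Library totals were 31245695 to 39931833 reads in genes, and the members had 176 to 8411 reads each per library. All 8 markers of squamous epithelium were at 1 RPKM or more in every library, while DCN, CDH5 and CDX2, markers of fibroblasts, endothelium and columnar epithelium, were at 0 in all of them. Of the 3 endothelial markers VWF was present, and their sum was 1.41 to 1.96 RPKM with vehicle and 0.870 to 1.69 with DMOG. Of the fibroblast markers COL1A1 was present, and the summed level of the 6 was 8.76 to 14.1 RPKM with vehicle and 19.0 to 32 with DMOG. Of the 4 leukocyte markers CD68 was present, with sums of 42.7 to 73.4 and 60.9 to 93.1 RPKM. Their part in the results was not tested. In bulk RNA, fewer cells of a type and less RNA per cell cannot be told apart.

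The library of DMOG replicate 2 stood near the vehicle libraries. CA9, a carbonic anhydrase and HIF-1 target, was at 25.2, 2.56, 9.97 and 57.5 RPKM in DMOG replicates 1 to 4 and at 0.129 to 1.29 in the vehicle libraries. EGLN3, a prolyl hydroxylase that is itself a HIF target, was at 119, 9.93, 35.6 and 334 RPKM with DMOG, and its 9.93 in replicate 2 lay inside the vehicle range of 5.46 to 13.2. PDK1 was at 1.18 RPKM in DMOG replicate 2 and at 3.44 in vehicle replicate 2, against 1.12 to 1.38 in the other vehicle libraries. Of the 32 members, 26 were nearer in DMOG replicate 2 to the vehicle mean than to the mean of the other DMOG libraries, and 25 lay within the vehicle range, after scaling by median-ratio factors. The shares over all genes were not computed, so these counts show nothing particular to the members. Vehicle replicate 2 also differed: it was the lowest vehicle library for 14 members after this scaling and for 22 as deposited. The authors' own comparison uses replicates 1, 3 and 4 of each group and leaves out replicate 2; why is not stated in the labels or headers. Results are therefore given over all 8 libraries and over those 6. The p-values of the smaller comparison take no account of how its libraries were chosen, and the comparisons share libraries.

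In the plot of levels against the vehicle mean, IDH2 and SUCLG1 stand out as the members with the clearest increase with DMOG, and subunits of pyruvate dehydrogenase, IDH1 and IDH3B, a subunit of the NAD-dependent isocitrate dehydrogenase, lie lower.

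**Figure D1:**
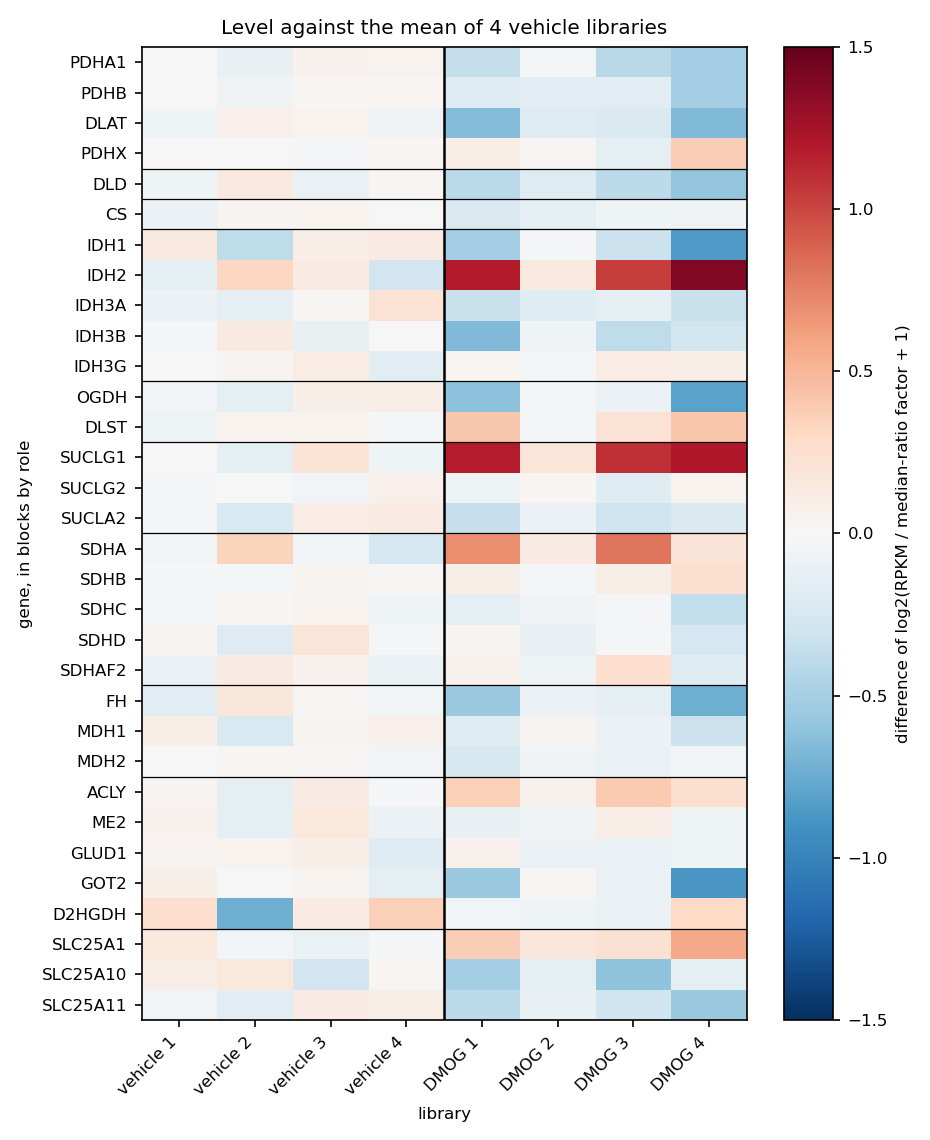
Rows are the 32 genes in blocks by role and columns are the 8 libraries; colour is the difference of log2(RPKM / median-ratio factor + 1) from the mean of the 4 vehicle libraries, red for higher and blue for lower. IDH2 and SUCLG1 are red in DMOG replicates 1, 3 and 4, and the column of DMOG replicate 2 is pale throughout.

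Over all 8 libraries, 0 members were called higher and 0 lower by limma-trend on log2(RPKM + 1) as deposited, at an adjusted p under 0.05 over 11122 genes. The background was the same, as 0% of genes were called higher and 0% lower. Before adjustment, p was under 0.05 for 2 members on the higher side (IDH2 and SUCLG1) and 17 on the lower, beside 665 and 3243 of all genes, and limma-voom on recovered reads also called 0 and 0 genes. The median log2 fold change was -0.32 over the members and -0.18 over all genes. Without DMOG replicate 2, the members called were 2 higher (IDH2 and SUCLG1) and 18 lower, against a background of 6.72% higher and 32.2% lower. After median-ratio scaling the groups of 4 did not overlap for 1 member on the higher side, SLC25A1, where the background was 5.04%. They did not overlap for 4 on the lower side, IDH3A, DLD, PDHB and DLAT, where it was 7.33%. With RPKM as deposited these numbers were 0 (background 2.27%) and 7 (background 12.8%), the 7 being CS, DLD, SDHC, FH, MDH2, PDHB and DLAT.

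Over the 6 libraries, 4 of the 32 members rose with DMOG and 7 fell. The 4 were IDH2, SUCLG1, SDHA and DLST, and the 7 were IDH1, SLC25A11, DLAT, PDHA1, DLD, IDH3B and SUCLA2. The background was 13.7% of 11122 genes higher and 16.1% lower, so the number of members called lay close to it in either direction. The median log2 fold change was -0.16 over the members and -0.00 over all genes. With the replicate number as a block, 6 members were higher (background 19.6%) and 10 lower (background 21%). The 5 added were ACLY (adjusted p = 0.0463), SLC25A1 (0.0422), OGDH (0.0371), FH (0.0489) and GOT2 (0.0358). The authors' deposited table gives 6 members higher (the same 6 genes as with the block) and 8 lower (the 7 and OGDH), among 18.8% and 17.6% of its 13424 genes.

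These calls depend on the scaling and, for most members, on single libraries. With RPKM as deposited, 2 members were higher (IDH2 and SUCLG1, background 6.13%) and 20 lower (background 34.5%), and the median gene stood at -0.26. The 13 added on the lower side were CS, IDH3A, OGDH, SUCLG2, SDHC, SDHD, FH, MDH1, MDH2, PDHB, GOT2, D2HGDH and SLC25A10 (adjusted p = 0.0116 to 0.0401). Unless another scaling is named, RPKM values are as deposited, fold changes and calls over 6 libraries are after median-ratio factors and so are not the ratios of those RPKM, and those over 8 are as deposited. The sign of the fold change then differed from the median-ratio fit for IDH3G, SDHB, SDHAF2, PDHX and ACLY. IDH2 and SUCLG1 remained called under all 12 alternatives. The other 9 calls were lost without vehicle replicate 1 (adjusted p = 0.0589 to 0.142) and without vehicle replicate 4 (0.0602 to 0.141). Of these 9, 8 were lost without vehicle replicate 3 (0.0504 to 0.119) and 8 without DMOG replicate 1 (0.0574 to 0.138), and DLST and DLAT also without DMOG replicate 4 (0.0619 and 0.0851). With no filter on low values, IDH3B, DLST, SDHA and DLAT were lost (0.0553 to 0.0788). Calls over all genes moved as well. Of the 11122 genes, 1526 were higher and 1792 lower with all 6 libraries and median-ratio factors. Without vehicle replicates 1, 3 and 4 in turn these were 379 and 539, 864 and 1018, and 462 and 586. They were 486 and 607 without DMOG replicate 1, 1313 and 1545 without DMOG replicate 4, and 985 and 1268 with no filter. Without DMOG replicate 3, 12 members were lower, with IDH3A, OGDH, FH, MDH1 and GOT2 added, beside 2527 of the 11122 genes.

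**Figure D2:**
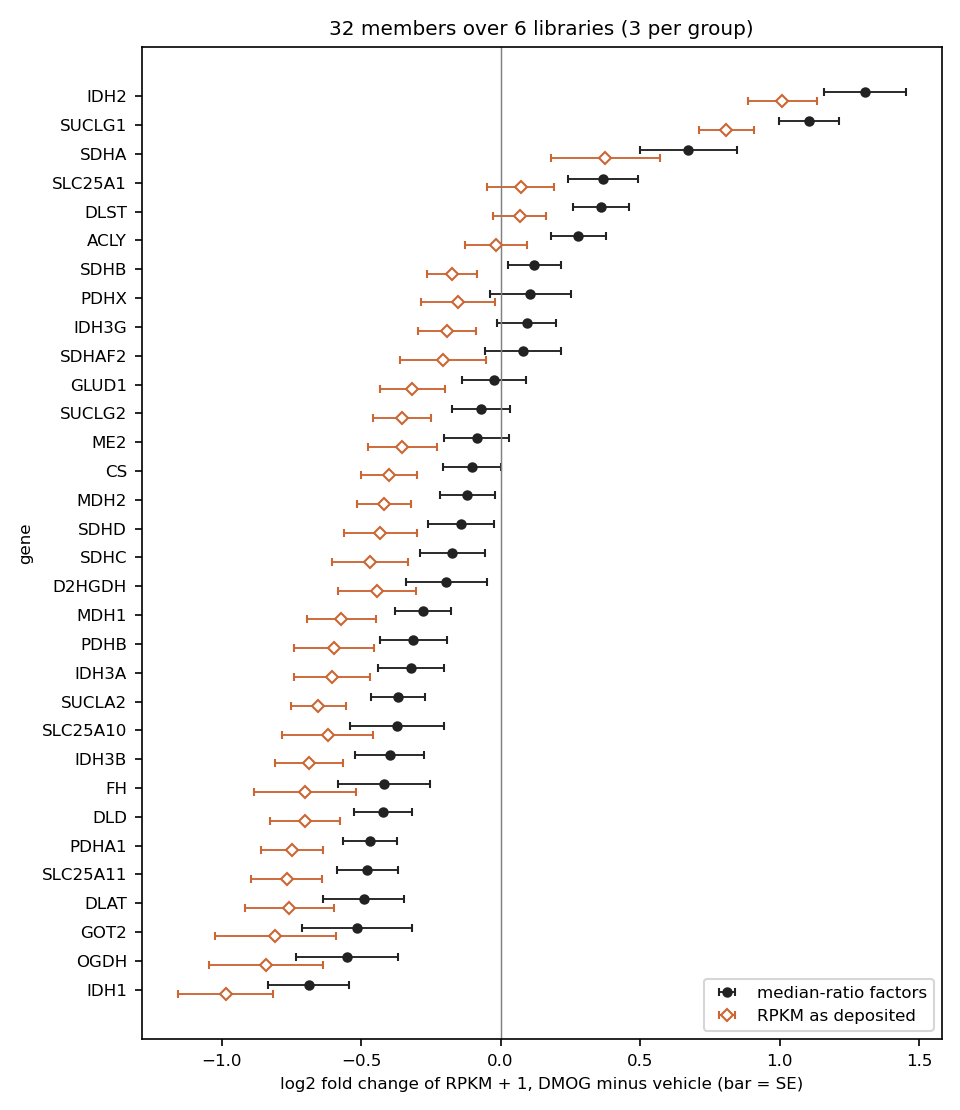
Log2 fold changes of RPKM + 1, DMOG minus vehicle, for the 32 members over 6 libraries (3 per group), with bars for the SE; filled circles are from the fit with median-ratio factors and open diamonds from RPKM as deposited. IDH2 and SUCLG1 lie above 0 under both scalings, while the diamonds lie to the left of the circles for every member.

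IDH2, the mitochondrial NADP-dependent isocitrate dehydrogenase, which interconverts isocitrate and 2-oxoglutarate, had the largest increase among the members. It is listed at chromosome 15, 90627211 to 90645786 (hg19). Its level was 25.0, 31.0, 28.9 and 22.6 RPKM in vehicle replicates 1 to 4 and 52.6, 29.1, 47.9 and 56.2 RPKM in DMOG replicates 1 to 4. DMOG replicates 1, 3 and 4 stood above every vehicle library, and DMOG replicate 2 lay inside the vehicle range. Over the 6 libraries IDH2 rose from 25.5 ± 3.14 to 52.2 ± 4.17 RPKM as deposited (SD, n = 3 per group). The log2 fold change was 1.01 on these values as deposited (limma adjusted p = 0.00309) and 1.30 ± 0.15 SE after median-ratio scaling (0.00428). Over all 8 libraries as deposited the log2 fold change was 0.73 ± 0.21 (limma adjusted p = 0.0879).

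SUCLG1 encodes the alpha subunit of succinyl-CoA ligase, which is shared by the GTP-forming and the ATP-forming enzyme. It lies at chromosome 2, 84650647 to 84686586 (hg19). Vehicle replicates 1 to 4 had 32.4, 25.9, 35.4 and 31.0 RPKM, and DMOG replicates 1 to 4 had 60.6, 34.4, 57.7 and 56.8. As for IDH2, only DMOG replicate 2 fell within the vehicle range. SUCLG1 rose over the 6 libraries, where its means as deposited were 32.9 ± 2.24 RPKM for vehicle and 58.4 ± 1.98 for DMOG (SD, n = 3 per group). The log2 fold change was 0.81 on these values as deposited (limma adjusted p = 0.0031) and 1.11 ± 0.11 after median-ratio scaling (0.00316). Over 8 libraries as deposited it was 0.71 ± 0.19 (limma adjusted p = 0.0879).

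The sequences before the starts of 4 members are shown here because these genes were called in opposite directions over the 6 libraries: IDH2 and SUCLG1 higher, and DLAT and PDHA1, of the pyruvate dehydrogenase complex, lower. Each is the 250 bases before a RefSeq start listed for the gene on build GRCh38.p14. It reads 5′ to 3′ on the gene's strand, with the core of the hypoxia response element in capitals. Whether these are the main starts of the genes, or those used in these cells, was not tested. The core was searched as ACGTG and GCGTG on both strands, so that a core on the reverse strand reads CACGT or CACGC here. ACGTG and CACGT are also parts of the E-box CACGTG, which none of these 4 windows holds.
IDH2, chr15:90100622-90100871, minus strand: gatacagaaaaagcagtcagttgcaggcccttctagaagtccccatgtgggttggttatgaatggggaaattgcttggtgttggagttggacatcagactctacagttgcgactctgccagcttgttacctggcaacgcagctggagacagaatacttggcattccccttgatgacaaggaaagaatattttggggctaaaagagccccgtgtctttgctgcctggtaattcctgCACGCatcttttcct
SUCLG1, chr2:84459281-84459530, minus strand: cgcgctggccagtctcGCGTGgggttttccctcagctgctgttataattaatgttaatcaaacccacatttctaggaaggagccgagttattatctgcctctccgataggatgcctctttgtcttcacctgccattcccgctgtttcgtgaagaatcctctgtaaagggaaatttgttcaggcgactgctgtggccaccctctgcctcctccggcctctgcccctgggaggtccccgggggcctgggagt
DLAT, chr11:112025158-112025407, plus strand: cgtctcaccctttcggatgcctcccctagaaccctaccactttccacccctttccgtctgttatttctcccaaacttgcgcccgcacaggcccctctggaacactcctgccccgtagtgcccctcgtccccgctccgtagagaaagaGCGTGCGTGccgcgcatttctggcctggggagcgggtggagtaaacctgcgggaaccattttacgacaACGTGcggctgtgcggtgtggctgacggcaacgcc
PDHA1, chrX:19343677-19343926, plus strand: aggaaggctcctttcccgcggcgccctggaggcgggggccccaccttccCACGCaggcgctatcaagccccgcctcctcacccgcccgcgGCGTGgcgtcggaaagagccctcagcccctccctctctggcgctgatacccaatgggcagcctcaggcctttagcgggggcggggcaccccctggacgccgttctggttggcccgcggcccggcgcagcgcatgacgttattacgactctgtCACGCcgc

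The core was present in all 4 of these windows, once in that of IDH2, 15 bases before the start, and once in that of SUCLG1, 234 bases before it. In the window of DLAT the core nearest to the start was 35 bases before it, and in that of PDHA1 8 bases before it. RefSeq windows were matched for 30 members, and 22 of them held the core in at least 1 window. It was found in 3 of the 4 members that rose (not in DLST) and in 6 of the 7 that fell (not in SUCLA2). Of the 19 matched members that were not called, 13 held it. Counted by window, 68.6% of the 35 member windows held it, beside 55.6% of 12110 windows of the genes tested and 43.2% of all 35116 windows. A match describes letters and does not show binding.

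The pyruvate dehydrogenase complex makes acetyl-CoA from pyruvate: PDHA1 and PDHB form the decarboxylase, DLAT carries the acetyl group and PDHX binds the E3 subunit DLD, which is shared with other complexes. PDHA1 and DLAT fell over the 6 libraries, as did DLD, while PDHB and PDHX did not pass. PDHA1 (chromosome X, 19362011 to 19379825) was at 15.1, 12.4, 15.2 and 15.9 RPKM in vehicle replicates 1 to 4 and at 9.44, 14.1, 9.14 and 7.78 in DMOG replicates 1 to 4. DMOG replicates 1, 3 and 4 were below all vehicle libraries, and DMOG replicate 2 was above vehicle replicate 2. The log2 fold change of PDHA1 was -0.47 ± 0.10 (limma adjusted p = 0.0145). DLAT (chromosome 11, 111895538 to 111935002) was at 10.3, 10.3, 10.7 and 10.5 RPKM with vehicle and at 5.28, 8.79, 7.59 and 4.84 with DMOG, so that all 4 DMOG libraries, replicate 2 included, lay below all 4 vehicle libraries. Its log2 fold change with median-ratio factors was -0.49 ± 0.15 over 6 libraries (limma adjusted p = 0.0430) and -0.43 ± 0.14 over 8 (0.118). As deposited it was -0.76 over 6 (limma adjusted p = 0.0110) and -0.62 ± 0.17 over 8 (0.0879).

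DLD (chromosome 7, 107531552 to 107561643) likewise had no overlap between the groups of 4. Its RPKM were 15.6, 16.3, 14.5 and 16.9 with vehicle and 9.83, 13.3, 10.1 and 7.95 with DMOG (log2 fold change -0.42 ± 0.10 over 6 libraries, limma adjusted p = 0.0253). PDHB was at 18.9, 16.2, 18.3 and 19.5 RPKM with vehicle and at 13.3, 15.6, 13.8 and 9.74 with DMOG, again without overlap, but it did not pass (-0.31 ± 0.12, limma adjusted p = 0.0856). PDHX stood apart from the other subunits in its values, with 5.73 to 6.60 RPKM with vehicle and 4.70 to 6.49 with DMOG (0.11 ± 0.15, limma adjusted p = 0.594). Summed over PDHA1, PDHB, DLAT and PDHX, the level was 49.5 ± 3.40 RPKM in the vehicle group and 35.6 ± 6.59 in the DMOG group (SD, n = 4 per group).

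Citrate synthase, CS, which starts the cycle by joining acetyl-CoA to oxaloacetate, was at 66.9, 65.4, 70.8 and 71.7 RPKM with vehicle and at 49.6, 60.6, 56.5 and 51.9 with DMOG. These groups did not overlap as deposited, but relative to the median gene CS did not pass (log2 fold change -0.10 ± 0.10 over 6 libraries, limma adjusted p = 0.462).

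The isocitrate dehydrogenases went in different directions. IDH1, the NADP-dependent enzyme of the cytosol and peroxisomes, fell, while its mitochondrial counterpart IDH2 rose. IDH1 (chromosome 2, 209100951 to 209119867) was at 79.2, 48.9, 73.1 and 78.4 RPKM in vehicle replicates 1 to 4 and at 40.6, 65.4, 47.0 and 29.5 in DMOG replicates 1 to 4. Vehicle replicate 2 was low and DMOG replicate 2 high, so the groups of 4 overlapped, and over 8 libraries the log2 fold change was -0.64 ± 0.24 (limma adjusted p = 0.108). Over the 6 libraries its mean as deposited was 76.9 ± 3.30 RPKM for vehicle and 39.0 ± 8.84 for DMOG (SD, n = 3 per group). The log2 fold change was -0.99 on these values as deposited (limma adjusted p = 0.00634) and -0.69 ± 0.15 after median-ratio scaling (0.0160).

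Of the 3 subunits of the NAD-dependent IDH3, which works in the cycle itself, IDH3B fell and the others did not pass. IDH3B (chromosome 20, 2639041 to 2644865) was at 25.1, 25.3, 22.4 and 25.9 RPKM with vehicle and at 12.8, 23.0, 16.1 and 15.8 with DMOG (log2 fold change -0.40 ± 0.12, limma adjusted p = 0.0486). Its call was also lost with upper-quartile factors (adjusted p = 0.0599). IDH3A, the catalytic subunit, was at 17.1, 14.7, 17.7 and 21.5 RPKM with vehicle and at 11.6, 15, 13.6 and 10.8 with DMOG (-0.32 ± 0.12, limma adjusted p = 0.0791). IDH3G had 15.7 to 18.1 RPKM with vehicle and 14.2 to 16.2 with DMOG (0.09 ± 0.11, but -0.19 as deposited, limma adjusted p = 0.520 and 0.181). Its listed interval overlaps that of SSR4 on the other strand, which had 48.7 to 62.9 RPKM.

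The 2-oxoglutarate dehydrogenase complex, which turns 2-oxoglutarate into succinyl-CoA, consists of OGDH, DLST and DLD. OGDH, the decarboxylase, was at 35.5, 29.7, 37.2 and 39.6 RPKM with vehicle and at 19.2, 33.7, 28.4 and 15.5 with DMOG. The spread among the DMOG libraries was wide, and OGDH did not pass (log2 fold change -0.55 ± 0.18 over 6 libraries, limma adjusted p = 0.0599). It was lower with the replicate block (0.0371), with RPKM as deposited (0.0176) and without DMOG replicate 3. DLST, the succinyltransferase, rose relative to the median gene by a small amount (0.36 ± 0.10, limma adjusted p = 0.0366). DLST (chromosome 14, 75348594 to 75370450) was at 24.7, 24.3, 25.8 and 25.8 RPKM with vehicle and at 28.4, 24.1, 25.3 and 26.6 with DMOG, values that overlap as deposited (0.07, limma adjusted p = 0.591).

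The succinyl-CoA ligase has, beside SUCLG1, a beta subunit that sets the nucleotide: SUCLG2 for GTP and SUCLA2 for ATP. SUCLA2 (chromosome 13, 48516791 to 48575462) fell over the 6 libraries (log2 fold change -0.37 ± 0.10, limma adjusted p = 0.0308). Its RPKM were 18.9, 14.5, 19.9 and 21.2 with vehicle and 12.1, 16.9, 12.6 and 12.3 with DMOG. Replicate 2 of either group lay between the other vehicle libraries and the other DMOG libraries, and was higher with DMOG than with vehicle. SUCLG2 had 15.4 to 18.6 RPKM with vehicle and 12.6 to 16.7 with DMOG and did not pass (-0.07 ± 0.10, limma adjusted p = 0.630). The 3 subunits summed to 66.5 ± 7.30 RPKM in the vehicle group and 79.9 ± 8.10 in the DMOG group (SD, n = 4 per group).

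Succinate dehydrogenase, complex II of the respiratory chain, oxidizes succinate to fumarate. SDHA, its flavoprotein, rose over the 6 libraries (log2 fold change 0.67 ± 0.17, limma adjusted p = 0.0287), while SDHB, the iron-sulfur subunit, the membrane anchors SDHC and SDHD, and SDHAF2, which assists insertion of the flavin, did not pass. SDHA (chromosome 5, 218356 to 256814) was at 51.6, 60.5, 49.4 and 45.1 RPKM with vehicle and at 70.9, 54.5, 77.3 and 46.2 with DMOG. DMOG replicates 1 and 3 were above every vehicle library, and DMOG replicates 2 and 4 lay within the vehicle range as deposited (log2 fold change 0.37 with that scaling, limma adjusted p = 0.161). Pseudogene copies share sequence with SDHA, so its value is uncertain: SDHAP1 was at 1.36 to 2.15 RPKM with vehicle and 1.26 to 3.22 with DMOG, and SDHAP2 at 2.27 to 2.87 and 2.22 to 3.50.

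SDHB was at 43.1, 38.5, 43.4 and 45.1 RPKM with vehicle and at 38.1, 40.9, 38.8 and 39.3 with DMOG, the narrowest spread of these subunits in the DMOG group (0.12 ± 0.10 over 6 libraries, but -0.18 as deposited, limma adjusted p = 0.355 and 0.157). SDHC was at 33.2, 30.8, 33.3 and 32.6 RPKM with vehicle and at 24.8, 30.5, 27.3 and 19.4 with DMOG, without overlap as deposited (-0.17 ± 0.12, limma adjusted p = 0.282). SDHD had 18.3 to 25.7 and 14.8 to 20.4 RPKM (limma adjusted p = 0.386). SDHAF2 had 19.2 to 20.5 RPKM with vehicle and 13.5 to 20.4 with DMOG (0.667).

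Fumarase, FH, and the mitochondrial malate dehydrogenase, MDH2, close the cycle, while MDH1 works in the cytosol. None of the 3 passed over the 6 libraries with median-ratio factors. With RPKM as deposited all 3 were lower (limma adjusted p = 0.0216 for FH, 0.0116 for MDH1 and 0.0149 for MDH2), and FH also with the replicate block. FH was at 19.0, 21.6, 20.7 and 20.9 RPKM with vehicle and at 11.5, 18.7, 16.0 and 9.38 with DMOG, below every vehicle library in each case (log2 fold change -0.42 ± 0.16, limma adjusted p = 0.0911). MDH1, the cytosolic enzyme, had 22.4 to 31.7 RPKM with vehicle and 17.6 to 28.5 with DMOG (-0.28 ± 0.10, limma adjusted p = 0.0731). MDH2, the mitochondrial enzyme, was at 65.7, 60.4, 63.9 and 64.6 RPKM with vehicle and at 45.4, 59.9, 51.1 and 48.5 with DMOG, without overlap as deposited (-0.12 ± 0.10, limma adjusted p = 0.383).

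Among enzymes of reactions beside the cycle, none passed over the 6 libraries with median-ratio factors and no block. With RPKM as deposited GOT2 (limma adjusted p = 0.0242) and D2HGDH (0.0401) were lower, GOT2 also without DMOG replicate 3, and ACLY was higher with upper-quartile factors. GOT2, the mitochondrial aspartate aminotransferase, which makes 2-oxoglutarate and aspartate from glutamate and oxaloacetate, was at 42.8, 35.9, 39.4 and 36.6 RPKM with vehicle. With DMOG it was at 21.9, 38.0, 30.8 and 16.1 RPKM (log2 fold change -0.51 ± 0.20, limma adjusted p = 0.0854). GLUD1, glutamate dehydrogenase, which releases 2-oxoglutarate from glutamate, had 31.8 to 37.3 RPKM with vehicle and 25.7 to 31.9 with DMOG (-0.02 ± 0.11, limma adjusted p = 0.891). ACLY, which splits citrate in the cytosol, had 30.9 to 39.3 and 33.8 to 41.3 RPKM (0.28 ± 0.10, but -0.02 as deposited, limma adjusted p = 0.0692 and 0.912). ME2, the mitochondrial NAD-dependent malic enzyme, had 6.41 to 8.73 and 5.70 to 7.24 RPKM (limma adjusted p = 0.588).

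D2HGDH, which oxidizes D-2-hydroxyglutarate to 2-oxoglutarate, was the member with the lowest mean in the vehicle group. It was at 5.41, 1.93, 4.59 and 5.97 RPKM with vehicle and at 3.42, 3.87, 3.29 and 4.25 with DMOG. Vehicle replicate 2 was the lowest of all 8 libraries for this gene, and D2HGDH did not pass (log2 fold change -0.19 ± 0.14 over 6 libraries, limma adjusted p = 0.329).

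Of the 3 mitochondrial carriers, SLC25A11, which exchanges 2-oxoglutarate for malate, fell (log2 fold change -0.48 ± 0.11, limma adjusted p = 0.0203). SLC25A11 (chromosome 17, 4840426 to 4843462) was at 25.5, 20.8, 27.5 and 28.4 RPKM with vehicle and at 16.1, 22.9, 17.5 and 13.2 with DMOG, with replicate 2 of DMOG above replicate 2 of vehicle. SLC25A10, the dicarboxylate carrier, had 4.58 to 6.63 RPKM with vehicle and 3.0 to 5.14 with DMOG (-0.37 ± 0.17, limma adjusted p = 0.128). SLC25A1, which exports citrate, was at 36.6, 28.3, 29.1 and 32.7 RPKM with vehicle and at 34.6, 34.8, 31.7 and 36.9 with DMOG (0.37 ± 0.13, limma adjusted p = 0.0646, and 0.07 as deposited).

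**Figure D3:**
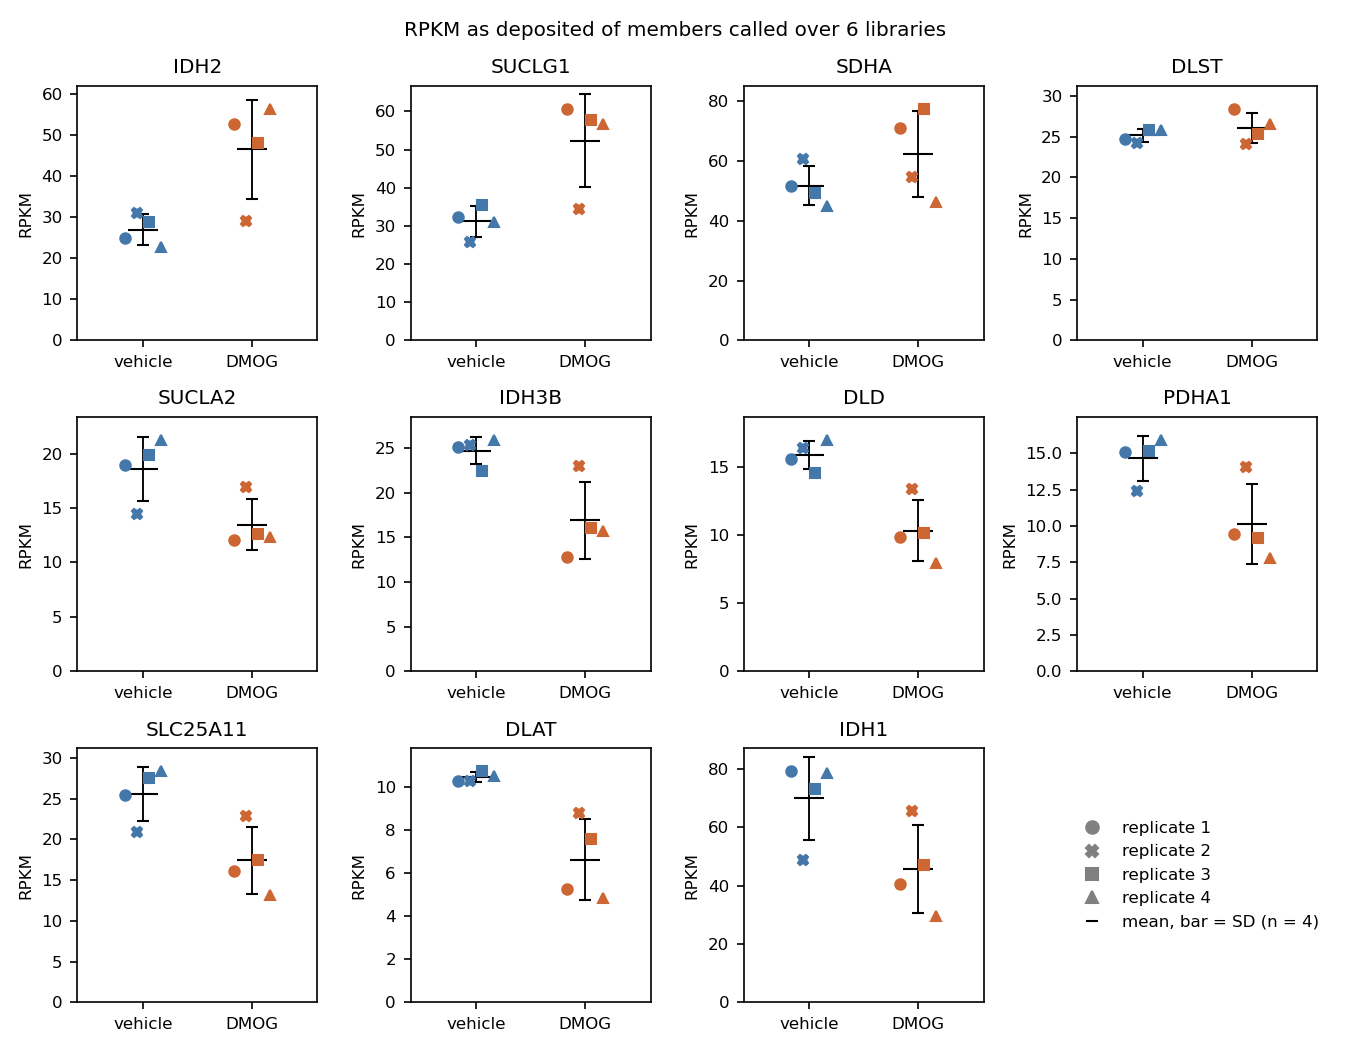
RPKM as deposited in each library for the 11 members called over 6 libraries, ordered by fold change, with vehicle on the left and DMOG on the right of each panel; symbols give the replicate and black bars the mean and SD of 4. The cross, replicate 2, lies among the vehicle values for IDH2 in the DMOG group (29.1 RPKM), and the 4 DMOG values of DLAT and DLD all lie below vehicle.

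The vehicle cultures had a wide range of levels among the members. IDH1 (69.9 ± 14.3 RPKM, SD, n = 4), CS (68.7 ± 3.02) and MDH2 (63.7 ± 2.31) were highest. CS was above MDH2 in every vehicle library, while IDH1 was below both in vehicle replicate 2 and above both in the others. SDHA followed at 51.6 ± 6.50 and SDHB at 42.5 ± 2.83. The lowest were D2HGDH (4.48 ± 1.79), SLC25A10 (5.91 ± 0.908) and PDHX (6.17 ± 0.393). D2HGDH was below PDHX in every vehicle library, and the order of SLC25A10 and PDHX differed between libraries. In DMOG replicates 1, 3 and 4 the means were 64.8 ± 16.4 RPKM for SDHA, 58.4 ± 1.98 for SUCLG1, 52.7 ± 3.53 for CS, 52.2 ± 4.17 for IDH2 and 39.0 ± 8.84 for IDH1 (SD, n = 3). Summed over all 32 members the level was 885 ± 51.0 RPKM in the vehicle group and 778 ± 68.8 in the DMOG group (SD, n = 4 per group), and the vehicle range of 809 to 915 overlapped the DMOG range of 688 to 846. These sums are of RPKM as deposited, where the median log2 fold change over all genes was also below 0 (-0.18 over 8 libraries).

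A ratio of 2 genes in the same library does not depend on how libraries are scaled. Over 8 such ratios and all 8 libraries, 0 passed an exact permutation test (two-sided, smallest possible p = 0.0286) after Benjamini-Hochberg adjustment. A single ratio at that smallest p could not pass this adjustment, so nothing is concluded from the absence of a pass. IDH2 over IDH1 was 0.316, 0.635, 0.395 and 0.289 in vehicle replicates 1 to 4 and 1.30, 0.444, 1.02 and 1.91 in DMOG replicates 1 to 4. Transcripts of IDH2 thus exceeded those of IDH1 in DMOG replicates 1, 3 and 4 and in no vehicle library, and DMOG replicate 2 lay inside the vehicle range. The difference of the log2 ratio was 1.40 (exact p = 0.0571, adjusted p = 0.229), and 2.04 over the 6 libraries, where the groups did not overlap and the smallest exact p is 0.1.

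SUCLG1 over SUCLG2 was 1.90, 1.68, 2.21 and 1.67 with vehicle and 4.50, 2.06, 4.58 and 4.16 with DMOG (difference 0.98, exact p = 0.0571, adjusted p = 0.229). SUCLG2 over SUCLA2 was 0.807 to 1.07 with vehicle and 0.987 to 1.12 with DMOG (0.21, exact p = 0.0857, adjusted 0.229). For the other 5 pairs, differences in the log2 ratio were 0.04 for MDH2 over MDH1, 0.10 for IDH3A over IDH3B, -0.07 for PDHA1 over PDHB, 0.36 for SDHA over SDHB and 0.34 for GLUD1 over GOT2, with exact p = 0.200 to 0.571 and adjusted p = 0.400 to 0.571.

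**Figure D4:**
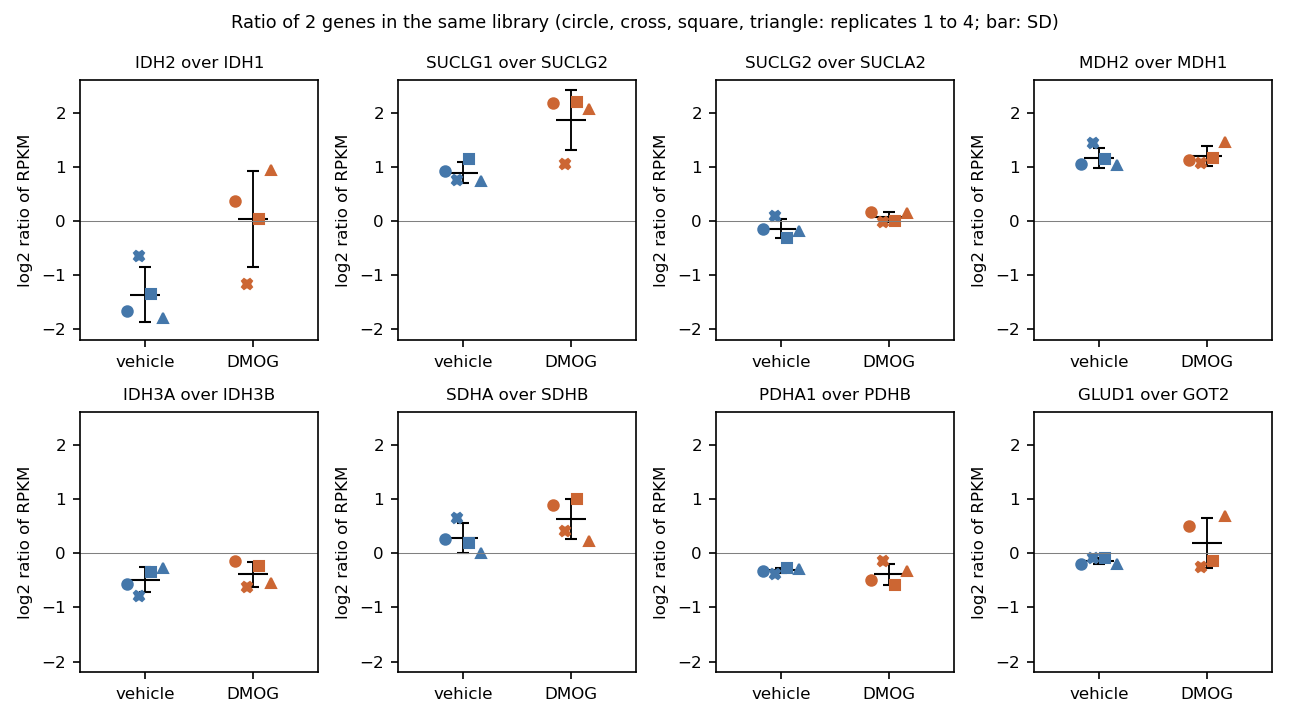
Log2 of the ratio of 2 RPKM values in the same library, for 8 pairs of members, in the vehicle (left) and DMOG (right) groups; symbols give the replicate and bars the mean and SD of 4. IDH2 over IDH1 and SUCLG1 over SUCLG2 are higher in DMOG replicates 1, 3 and 4 than in any vehicle library, and replicate 2 of the DMOG group sits with the vehicle libraries.

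Other genes of the same metabolism were listed for comparison, 62 of 64 names were found and 47 could be tested. Over the 6 libraries 3 of the 47 rose and 18 fell, beside the same background of 13.7% and 16.1%. Those lower were 31 with RPKM as deposited, where the background was 34.5%. Leaving out vehicle replicate 1 gave 9, beside 539 of all 11122 genes. Leaving out vehicle replicate 4 gave 10 (beside 586), and leaving out DMOG replicate 1 gave 10 (beside 607). The 3 that rose were BCKDHA, PDK1 and BCKDK. BCKDHA, the E1 alpha subunit of the branched-chain 2-oxoacid dehydrogenase, had 17.2, 23.4, 15.1 and 14.9 RPKM with vehicle and 41.7, 19.0, 31.7 and 57.7 with DMOG (log2 fold change 1.67 ± 0.23, limma adjusted p = 0.00635). BCKDK, the kinase that inactivates that complex, had 14.2 to 16.7 and 16.0 to 25.9 RPKM (0.87 ± 0.14, limma adjusted p = 0.00867), and PDK1 changed by 1.18 ± 0.35 (0.0416). BCKDHB, the E1 beta subunit of the same complex, named after its values were seen, fell and had 2.38, 1.72, 1.82 and 2.02 RPKM with vehicle and 0.756, 1.81, 0.925 and 0.776 with DMOG (-0.58 ± 0.11, limma adjusted p = 0.0125).

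The 6 largest decreases in that list were those of PSAT1 and PHGDH of serine synthesis (log2 fold changes -4.33 ± 0.45 and -1.77 ± 0.18), PCK2, the mitochondrial phosphoenolpyruvate carboxykinase (-3.65 ± 0.31), SLC1A5, a glutamine transporter (-1.76 ± 0.33), GOT1 and PCCB. GOT1, the cytosolic aspartate aminotransferase, had 26.9, 24.0, 27.6 and 31.0 RPKM with vehicle and 3.03, 23.3, 7.31 and 1.58 with DMOG (log2 fold change -2.48 ± 0.37, limma adjusted p = 0.00739), a larger change than the -0.51 of its mitochondrial counterpart GOT2. The difference between these fold changes was not tested. PCCB, a subunit of propionyl-CoA carboxylase, which feeds succinyl-CoA, had 7.95 to 13.5 RPKM with vehicle and 2.58, 9.70, 3.46 and 2.12 with DMOG (-1.56 ± 0.17, limma adjusted p = 0.00409). Named after its values were seen, SDHAF3, a succinate dehydrogenase assembly factor listed as ACN9, changed by -0.84 ± 0.13 (limma adjusted p = 0.00806).

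Without strand information in the sources used here, reads of overlapping genes cannot be told apart. Of the 32 members 6 overlap another listed gene: besides IDH3G these are SDHC, MDH1, PDHA1, DLAT and PDHX. The partner of PDHX, APIP, was at 3.33 to 7.10 RPKM, as high as PDHX itself.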

How the data were processed

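RNA was measured in 8 libraries. The authors deposited RPKM values, although the table is named as raw counts, and a table of their own comparison with group means as a normalized signal, their ratio (fold) and its log2 value, and p-values before and after adjustment. The submitters' processing notes name HTSeq 0.6.1, TopHat2 2.0.13 with Bowtie2 2.2.3.0, Picard 1.129, SAMtools 1.3.1 and the builds hg19 and hg38; strand handling is not stated there, and chromosome positions are hg19 as listed. RPKM times gene length over the value of 1 read was whole within 0.01 reads for 100% of values above 0.

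The 8-library comparison used limma 3.58.1 (R 4.3.3, trend, robust) on log2(RPKM + 1), and the 6-library comparison the same after median-ratio factors, after which the median gene stood at -0.00 and no longer at -0.26 (log2). Tests were two-sided and covered genes that reached 1 RPKM in at least 4 of the 8 libraries, and an adjusted p (Benjamini-Hochberg) under 0.05 was called. This scale understates changes of low genes. The fit was also run on simulated data with independent noise, without an outlying library, paired replicates or a shift in scaling. That run therefore does not show how the fit behaves under those features of these data. Which libraries and which group each of the authors' means holds was recovered by matching them to sums of reads, since their headers do not say. Same-numbered libraries deviated together over the 6 libraries (correlations 0.466, 0.397 and 0.341), so the replicate block is given where it changes a call. Whether the replicates were grown as separate cultures is not labelled, and the p-values reflect the spread among these libraries, which may be technical. Members and lists were chosen with earlier results of these data known. All members were described. By rule, values per library were given for members called over 6 libraries or without overlap over 8, and the others by range with examples. Of the other pathway genes, at most the 6 largest called changes in each direction were named by rule. Some genes of these lists are not reported here by name.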

Additional observations from a re-analysis of the deposited data

Results flagged for a closer look

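Each of the 32 members was examined in both groups of 4 libraries for a library far from the rest, by Dixon's criterion on RPKM. Of 64 groups 2 met it, where chance alone gives about 1 in 20, or 3.2. They were SUCLG1, at 34.4 RPKM in DMOG replicate 2 against 56.8 to 60.6 in the other DMOG libraries, and SUCLA2, at 16.9 RPKM in the same library against 12.1 to 12.6.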

How the results depend on the processing

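Over 8 libraries, leaving out 1 library at a time gave 0 to 747 genes higher and 0 to 3585 lower, 0 to 2 members higher and 0 to 18 lower, and 0 to 2 other pathway genes higher and 0 to 28 lower, where the highest values are those without DMOG replicate 2. Median-ratio and upper-quartile factors, a pseudocount of 0.1, no filter, limma-voom on recovered reads and the replicate block each gave 0 and 0 genes there; the numbers did not pair all 8 libraries (same-number correlations 0.0716, -0.0214, 0.532 and 0.239). Over 6 libraries, RPKM as deposited gave 682 genes higher and 3836 lower, against 1526 and 1792, with 2 and 20 members, and 31 other pathway genes lower. With no filter 2 members were higher and 5 lower, beside 985 and 1268 of the 11122 genes. Leaving out 1 library gave 379 to 2224 genes higher and 539 to 2527 lower, 2 to 5 members higher and 0 to 12 lower, and 9 to 18 other pathway genes lower. The replicate block gave 2181 genes higher and 2337 lower, and 6 and 10 members. No called member changed direction under any of the 12 alternatives. The ratios had too few libraries to pass over 6 libraries or in same-numbered pairs, so nothing is read from those alternatives. Limma-voom used 11041 genes, since those with several listed positions have no single length. Reads per member limit the lowest members most: D2HGDH had 176 to 533 reads per library.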
